A study of Mus musculus with 15 samples.

Results

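The cytosolic ribosomal protein genes were followed in single microdissected proximal tubules and in whole kidney of the mouse. Members were chosen by gene symbol: every Rps or Rpl symbol with a number and at most a short a, x, l or number suffix, together with Rplp0, Rplp1, Rplp2 and Rpsa. The rule found 88 of the 47069 genes of the table, 36 of them named for the small (40S) subunit and 52 for the large (60S) subunit. Rows named as Gm or -ps pseudogenes were left out. All 88 matched the GENCODE M21 annotation by gene ID, where 83 are protein coding and 5 (Rpl6l, Rps12l1, Rps3a2, Rps3a3 and Rps4l) are processed pseudogenes, transcribed in the case of Rps4l. A few genes for subunits of the same ribosome have symbols outside the rule and are not described here.

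The cytosolic ribosome reads messenger RNA in the cytoplasm and is built in the nucleolus from ribosomal RNA and 1 copy of nearly every ribosomal protein, which is why these genes are usually expressed together. Their mRNAs typically begin with a C followed by a run of pyrimidines, the terminal oligopyrimidine or TOP motif, through which the kinase complex mTORC1 and the RNA-binding protein LARP1 set their translation. Several members have a paralog whose symbol carries an l for "like", and some of these paralogs are known for tissue-restricted expression or for roles outside the ribosome.

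The series asked how markers of renal cell types are represented in RNA-Seq of whole kidney. It held 12 libraries of single tubules labelled PTS2, for the S2 part of the proximal tubule, 4 replicates in each of the sets m1, m2 and m3, and 3 libraries of whole kidney. All came from male C57BL/6 mice aged 2 months, and the labels name no treatment and no engineered allele in either group. RNA was amplified with a kit for very low input. The labels do not say what m stands for or whether libraries of a set share an animal, so every p-value measures only the spread between these libraries, which may be technical. Values are TPM, transcript abundances scaled to transcript length and to a total of 1000000 in each library. Read depth cannot be recovered from them, so it is unknown here and no counting error is given.

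The marker genes placed the tubules in the proximal tubule, with levels of S3 as well as S2. Summed markers of all proximal segments were 15979 ± 1633 TPM (SD, n = 12) over the tubules and 11574.5 ± 607 TPM (SD, n = 3) in whole kidney. The S2 markers Slc22a6 and Slc22a8 summed to 86.2% of the kidney level, the S3 markers to 194% and the S1 markers to 5.83%. The S2 sum varied widely, from 368 to 1149 TPM over the tubules, against 719 to 781 TPM in whole kidney. The marker sums of 11 non-proximal cell types lay in every PTS2 library below every kidney library. PTS2 replicate 3 of m3 held 1441 TPM of thick ascending limb markers, where the other tubules held at most 55.8 TPM and whole kidney 2569 ± 149 TPM.

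The start regions of 6 members to which the comparison with whole kidney comes back are shown first. Each window holds 15 bases before and 15 bases after an annotated RefSeq transcription start of GRCm38.p6, written 5′ to 3′ on the gene's strand, with every CTTTC, a short pyrimidine run that begins with C, in capitals. Rps15a (chr7:118116133-118116162, minus strand), Rps27 (chr3:90213634-90213663, minus strand) and Rps28 (chr17:33824548-33824577, minus strand) had low shares in PTS2, while Rpl35a (chr16:33056467-33056496, plus strand), Rps27l (chr9:66946071-66946100, plus strand) and Rpl7l1 (chr17:46782642-46782671, minus strand) had high shares.
Rps15a: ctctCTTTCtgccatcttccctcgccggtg
Rps27: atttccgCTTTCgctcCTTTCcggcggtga
Rps28: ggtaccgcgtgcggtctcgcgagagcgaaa
Rpl35a: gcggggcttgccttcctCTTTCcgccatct
Rps27l: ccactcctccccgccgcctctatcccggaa
Rpl7l1: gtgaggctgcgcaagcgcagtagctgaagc
CTTTC is present in the windows of Rps15a, Rps27 and Rpl35a and absent from those of Rps28, Rps27l and Rpl7l1. In these 6 windows these exact letters do not divide low from high shares. Other pyrimidine runs, such as the one at the start of Rps15a, are not marked, so the TOP motif itself was not tested. Rpl35a has 3 starts and Rps27l has 2 starts in the RefSeq table, of which 1 is shown for each.

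Across the members that could be matched, the RefSeq table held 75 starts of 63 genes. CTTTC lay on the gene's strand within 25 bases of the start, on either side, in 19 of these starts (25.3%) and in 6.75% of all 32851 starts. On the opposite strand it lay in 7 member starts (9.33%) and in 6.10% of all starts. In the window from 250 bases before to 50 bases after the start, CCGGAAG, which holds the core bound by ETS factors, was found on either strand at 27 member starts (36%) and at 8.86% of all starts. TATAAA was found on either strand of the same window at 7 member starts (9.33%) and at 13.6% of all starts. A match describes the letters only and is no evidence of binding or of a functional motif. RefSeq starts of 1 gene overlap, so the starts are not independent.

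Most members were abundant and a few were near 0. In PTS2 the mean was over 100 TPM for 41 members and between 10 and 100 TPM for 39. Rpl10l, Rpl39l and Rps12l1 were listed at 0 in all 15 libraries, the first and second being paralogs known from male germ cells. Rps3a2, Rps3a3 and Rpl6l were above 0 but had a mean under 1 TPM, with highest values in any PTS2 library of 0.46, 0.26 and 0.41 TPM. The remaining 82 members, 33 of the 40S and 49 of the 60S subunit, averaged at least 1 TPM and entered the tests. Rps4l and Rpl3l were the lowest of these in PTS2.

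The most abundant member was Rps27l, a paralog of Rps27 known as a target gene of p53. In PTS2 its lowest level was 754 TPM, its median 1019 TPM and its highest 1177 TPM, and the kidney libraries held 883, 831 and 856 TPM. The PTS2 range contained all 3 kidney values. It alone made up 9.06% of the summed TPM of all members in PTS2 and 6.70% in whole kidney, so the sums below carry much of this 1 gene. Without it the members' sum was 9992 ± 905 TPM over the tubules (SD, n = 12), or 83.8% of the kidney level as TPM.

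Rpl41, which encodes a very small basic protein of the 60S subunit, came next in PTS2 with a lowest, median and highest level of 292, 423 and 528 TPM. Its kidney libraries held 475, 441 and 437 TPM, inside the PTS2 range. Rpl32, a 60S protein, had 252, 342 and 384 TPM over the tubules and 411, 400.3 and 384 TPM in whole kidney. Its PTS2 libraries were all below its kidney libraries, the closest by 384.40 against 384.43 TPM, and its log2 difference of -0.25 (limma adjusted p = 0.0401) was called in the full fit but not without any 1 kidney library, m1 replicate 1 or m2 replicate 4.

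The summed level of the 88 members is given for every library. In m1 the replicates held 9812, 11983, 11625 and 11486 TPM, in m2 10316, 11180.5, 12072 and 11139 TPM, and in m3 10408, 11725, 11512.5 and 8625 TPM. The 3 whole kidney libraries held 13055, 12678 and 12605.5 TPM. All tubules were below all kidney libraries on this scale, and replicate 4 of m3 was the lowest of the tubules. The mean was 10990.3 ± 1020.4 TPM (SD, n = 12) over the tubules and 12779.5 ± 242 TPM (SD, n = 3) in whole kidney. The tubules thus held 86.0% of the kidney level as TPM, but 105.8% of it when libraries were rescaled by the median of gene-wise ratios, where the groups overlapped. These sums were 1.10% and 1.28% of all TPM in a library. In bulk libraries a tissue with fewer cells rich in a transcript and one with less of that RNA per cell cannot be told apart.

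With Rps27l counted in the 40S sum, the proportion of the subunits was close in both tissues. The 40S members summed to 5322 ± 536 TPM (SD, n = 12) over the tubules and 6179 ± 110.2 TPM (SD, n = 3) in whole kidney. The 60S members summed to 5668 ± 489 TPM and 6601 ± 133 TPM. The ratio of the 40S to the 60S sum was 0.938 ± 0.0222 in PTS2, with a range from 0.891 to 0.972, and 0.936 ± 0.00441 in whole kidney, inside the PTS2 range. A common factor per library does not alter this ratio. Its closeness depends on Rps27l, however. Without Rps27l all members together held 83.8% of the kidney level, where the 60S members held 85.9%. The remaining 40S members thus held a smaller part of their kidney level than the 60S members, a difference that was not tested. The 83 nuclear genes of the mitochondrial ribosome, chosen by their names after the values were seen, summed to 9224 ± 463 TPM over the tubules and 9031 ± 196 TPM in whole kidney, so they held 102% of the kidney level where the cytosolic members held 86.0% of it. The difference between these percentages was not tested.

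**Figure D1:**
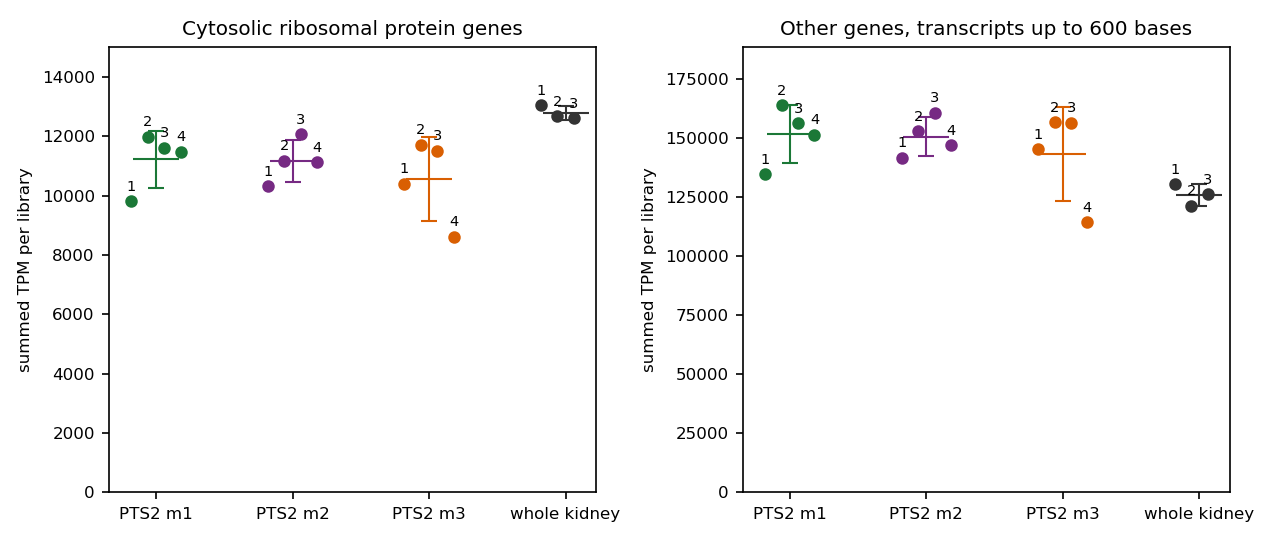
Summed TPM per library of the 88 cytosolic ribosomal protein genes (left) and of the 404 other genes with transcripts of up to 600 bases (right), by PTS2 set and for whole kidney. Each point is 1 library, labelled with its replicate number, and the bars are the group mean and SD. On the TPM scale every tubule lies below every kidney library at left, which is not so after median-of-ratios rescaling, and m3 replicate 4 is the lowest tubule in both panels, at 8625 and 114292 TPM.

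The first test asked which members differed between tubules and whole kidney. On the TPM scale 49 of the 82 tested members were lower in PTS2 and 2 were higher, by limma on log2(TPM + 1) with Benjamini-Hochberg adjustment over all 12039 genes. The background was close in kind: 41.5% of all genes tested were called lower and 9.68% higher, against 59.8% and 2.44% of the members. The median log2 difference was -0.28 over the members and -0.27 over all genes, so on this scale the members' median lay beside that of the whole transcriptome. Of the 82, 77 had a negative and 5 a positive log2 difference. For 42 members every tubule was below every kidney library, against 32% of all genes tested, and for 1 member every tubule was above, against 5.76%. The other 39 overlapped.

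The call depended on how libraries were scaled. After median-of-ratios rescaling, which brings the median over all genes to 0.00, 3 members were lower (background 23.1%) and 5 were higher (background 23.6%), and the members' median was 0.01. After quantile normalization 28 were lower (background 18.9%) and 3 higher (background 34.6%). With every library rescaled to the same summed TPM of the members, 9 were lower (background 20.2%) and 5 higher (background 14%). TPM values alone do not say which scale is nearer to RNA per cell, so levels below are also given as ratios between members, which a common factor per library leaves as they are and quantile normalization does not. Without m3 replicate 4, 53 members were lower (background 42.8%) and 4 higher (background 9.79%) as TPM. Without kidney replicate 1, 29 were lower (background 33.8%) and 2 higher (background 7.75%), and without kidney replicate 2, 32 were lower (background 31.6%) and 2 higher (background 8.49%). Without m3 replicate 3, the tubule with thick ascending limb markers, 51 were lower (background 41.2%) and 2 higher (background 9.4%).

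By subunit, 22 of 33 tested 40S members were lower and none was higher on the TPM scale, where 41.5% of all genes tested were lower and 9.68% higher, and after median-of-ratios rescaling 2 were lower and 2 higher (backgrounds 23.1% and 23.6%). Of 49 tested 60S members, 27 were lower and 2 higher as TPM, and 1 was lower and 3 higher after rescaling. The median log2 difference as TPM was -0.30 for the 40S and -0.26 for the 60S members, and after rescaling -0.02 and 0.03. As TPM the differences ran from -1.22 to 0.21 for the 40S and from -0.57 to 0.40 for the 60S members.

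**Figure D2:**
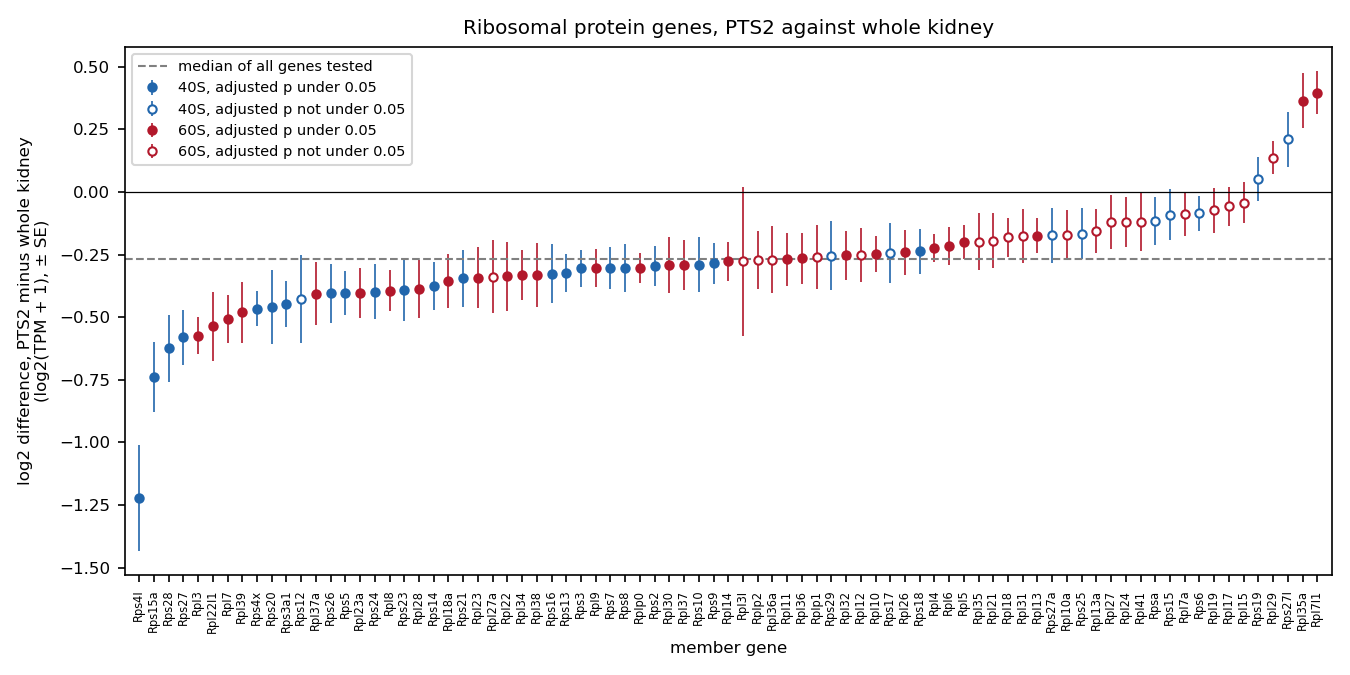
Log2 difference, PTS2 minus whole kidney, of 81 of the 82 tested members on the log2(TPM + 1) scale, with its standard error. Blue marks 40S and red 60S members, filled points had an adjusted p under 0.05, and the dashed line is the median of all genes tested. The differences run from -1.22 (Rps4l) to 0.40 (Rpl7l1) around that median of -0.27, and after median-of-ratios rescaling the members' median is 0.01.

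The 40S members with the largest lower calls were Rps4l, Rps15a, Rps28 and Rps27. Rps15a, a conserved 40S core protein, had a lowest, median and highest level of 41.5, 59.4 and 69.6 TPM over the tubules and 102, 104.5 and 85.4 TPM in whole kidney. The groups did not overlap. The difference was -0.74 ± 0.14 (log2, SE; limma adjusted p = 0.000334) as TPM and -0.45 after median-of-ratios rescaling, where it was still called. Rps15a (chr7:118104372-118116188, minus strand, GRCm38) had the most reduced share of the members' sum among those without overlap, 0.530% in PTS2 against 0.761% in whole kidney.

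Rps28, one of the smallest 40S proteins, had 83.9, 134 and 156 TPM over the tubules and 212, 185 and 199 TPM in whole kidney. The lowest value was that of m3 replicate 4, and no tubule reached a kidney library. Its log2 difference was -0.62 ± 0.14 (limma adjusted p = 0.00111), and it was -0.33 with an adjusted p of 0.116 after median-of-ratios rescaling.

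Rps27, a 40S protein with a zinc finger, had 208, 279 and 314 TPM over the tubules and 395, 391 and 413 TPM in whole kidney. Its groups were also apart. The log2 difference was -0.58 ± 0.11 (limma adjusted p = 0.000345), and it was -0.29 with an adjusted p of 0.115 after median-of-ratios rescaling.

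In the 60S subunit Rpl3, a protein close to the site of peptide bond formation, had 60.6, 72.4 and 79.0 TPM over the tubules and 98.3, 113 and 105.7 TPM in whole kidney. The gap between the groups was wide against the spread within them. Its log2 difference was -0.57 ± 0.07 (limma adjusted p = 6.69e-06) and -0.28 after median-of-ratios rescaling, where it was also called. Rpl3 was not lowest in m3 replicate 4, which held 72.9 TPM, but in m1 replicate 1.

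Rpl35a, a 60S protein, was 1 of the 2 members called higher. It had a lowest, median and highest level of 204, 270.2 and 327 TPM over the tubules and 214, 205 and 210.2 TPM in whole kidney. Only m3 replicate 4, at 204 TPM, was as low as the kidney libraries. The log2 difference was 0.37 ± 0.11 (limma adjusted p = 0.0108), and Rpl35a was also called higher after median-of-ratios rescaling and after rescaling to the members' sum. Its share of the members' sum was 2.48% in PTS2 and 1.64% in whole kidney, without overlap.

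The other was Rpl7l1, a paralog of Rpl7 with a role in the nucleolus. Its levels were 52.2, 62.0 and 69.4 TPM over the tubules and 47.5, 48.8 and 42.4 TPM in whole kidney, so the lowest tubule stood above the highest kidney library. The log2 difference was 0.40 ± 0.09 (limma adjusted p = 0.00111). Rpl7l1 was the single member with every tubule above every kidney library on the TPM scale.

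Rps27l, Rpl29 and Rps19 had positive differences that were not called on the TPM scale, of 0.21 (limma adjusted p = 0.121), 0.14 (adjusted p = 0.0919) and 0.05 (adjusted p = 0.646). These 3 joined Rpl35a and Rpl7l1 as the 5 members called higher after median-of-ratios rescaling, and as the 5 called higher after rescaling to the members' sum. Rpl29 and Rps19 were picked out after their values were seen. Without m3 replicate 4 the Rps27l difference was 0.25 and passed the threshold on the TPM scale too (limma adjusted p = 0.0318).

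The stalk of the 60S subunit, which recruits elongation factors, is built on Rplp0 with Rplp1 and Rplp2. Rplp0 was lower in all tubules, with a lowest, median and highest level of 283, 324 and 353 TPM over the tubules and 399, 394 and 391 TPM in whole kidney. The log2 difference was -0.30 ± 0.06 (limma adjusted p = 0.000498), but it was -0.01 after median-of-ratios rescaling. Rplp1 and Rplp2 had differences of -0.26 and -0.27 that were not called (limma adjusted p = 0.0995 and 0.0594), although both were called without m1 replicate 2, their highest tubule (adjusted p = 0.0363 and 0.00943), and Rplp2 also without m3 replicate 4 (adjusted p = 0.0482).

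Rps6, the substrate of the S6 kinases that act under mTORC1, had 92.3, 105.1 and 118 TPM over the tubules and 110.3, 106.9 and 112 TPM in whole kidney. The kidney values lay inside the PTS2 range. Its log2 difference was -0.08 (limma adjusted p = 0.325) as TPM and 0.21 after median-of-ratios rescaling. Rpsa, a 40S protein also known as a laminin receptor, had 44.3, 53.8 and 65.2 TPM over the tubules and 56.1, 58.7 and 59.5 TPM in whole kidney, likewise inside the range. Its log2 difference was -0.11 (limma adjusted p = 0.333) as TPM and 0.17 after median-of-ratios rescaling.

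The paralog pairs were compared as a ratio of TPM within each library, which is the same under any factor common to a library, though not under quantile normalization. Paralogs share sequence, so reads could be split between them in the authors' counting, and these ratios carry that uncertainty. They were chosen with the values known and are given without a test. The ratio of Rps27l to Rps27 was 3.72 ± 0.256 (SD, n = 12) in PTS2, from 3.43 to 4.34, and 2.14 ± 0.0821 (SD, n = 3) in whole kidney, from 2.07 to 2.23. The ranges were far apart, and m3 replicate 4 lay inside the PTS2 range although both genes were lowest there.

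The ratio of Rpl7l1 to Rpl7 was 0.533 ± 0.0942 (SD, n = 12) in PTS2, from 0.399 to 0.706, and 0.280 ± 0.0264 (SD, n = 3) in whole kidney, from 0.251 to 0.302. These ranges were also apart. Rpl7 itself had 96.5, 119.7 and 136 TPM in PTS2 as lowest, median and highest level, and 166, 162 and 169 TPM in whole kidney. In this pair the member named for the ribosome was lower (log2 difference -0.51 ± 0.10, limma adjusted p = 0.000364) and its paralog higher on the TPM scale, but Rpl7 was not called after median-of-ratios rescaling (-0.22, adjusted p = 0.154).

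Rps4l lies at chr6:148354656-148355598 (plus strand, GRCm38), while Rps4x, after which it is named, lies on the X chromosome. It had 6.23, 10.2 and 14.2 TPM over the tubules and 25.3, 24.8 and 20.2 TPM in whole kidney. No tubule reached a kidney library, and its log2 difference of -1.22 ± 0.21 (limma adjusted p = 0.000148) was the most negative of the members, and -0.95 after median-of-ratios rescaling. Rps4x had 61.2, 66.5 and 78.4 TPM over the tubules and 92.4, 97.0 and 91.7 TPM in whole kidney, a difference of -0.47 ± 0.07 (limma adjusted p = 4.36e-05) as TPM and of -0.18 (adjusted p = 0.135) after median-of-ratios rescaling. The ratio of Rps4l to Rps4x was 0.144 ± 0.0412 in PTS2 and 0.250 ± 0.0273 in whole kidney, and these ranges overlapped, from 0.0944 to 0.231 and from 0.220 to 0.273.

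Rpl22l1, a paralog of the RNA-binding protein Rpl22, was lower in the tubules, by a log2 difference of -0.54 ± 0.14 (limma adjusted p = 0.00367) as TPM and of -0.25 (adjusted p = 0.202) after median-of-ratios rescaling. Rpl22 had -0.34 ± 0.14 (limma adjusted p = 0.0488), a call kept only without m1 replicate 2 or 4, m2 replicate 2 or 3 or m3 replicate 4 among the single libraries left out. Their ratio was 0.863 ± 0.113 in PTS2 and 0.996 ± 0.174 in whole kidney, with overlap. Rpl3l, a paralog of Rpl3 known from striated muscle, was low in both groups, with 1.31, 4.09 and 8.05 TPM over the tubules and 4.00, 5.93 and 5.37 TPM in whole kidney. Its ratio to Rpl3 was 0.0611 ± 0.0270 in PTS2 and 0.0480 ± 0.00638 in whole kidney, and the ranges overlapped.

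**Figure D3:**
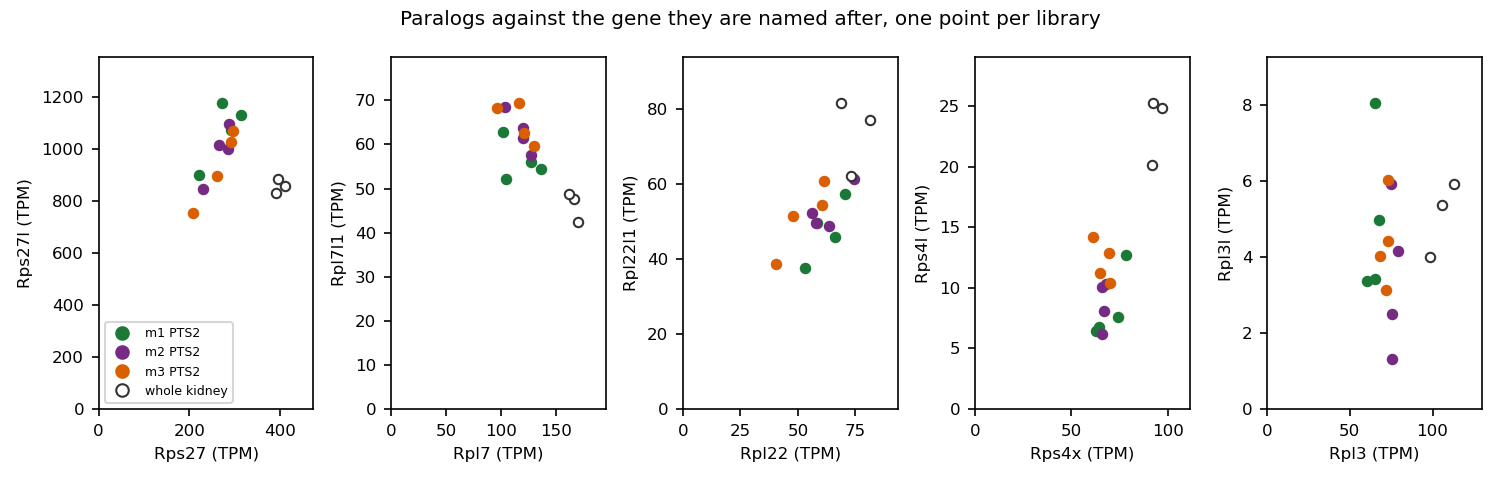
TPM of each of 5 paralogs (vertical axis) against TPM of the gene it is named after (horizontal axis), with both axes from 0. Each point is 1 library, filled for the PTS2 sets and open for whole kidney. In the panels of Rps27l and Rpl7l1 all tubules lie to the left of the kidney libraries, with mean ratios of 3.72 against 2.14 and of 0.533 against 0.280. In height the tubules lie above the kidney libraries for Rpl7l1 and overlap them for Rps27l.

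Expressed as a share of the members' own sum, 10 of the 82 tested members had every tubule below every kidney library and 8 had every tubule above. The same ratio to the members' sum put 16.1% of all genes tested below and 10.8% above. Besides Rps15a, the lowest in proportion were Rps28, with 1.17% in PTS2 against 1.55%, and Rps27, with 2.44% against 3.13%. The highest in proportion were Rps27l, Rpl35a and Rpl7l1, the last with 0.567% against 0.362%.

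Members differed in how much they varied among the tubules. The coefficient of variation over the 12 PTS2 libraries had a median of 11.1% over the 82 tested members. It was 15.1% over 8250 other genes between the lowest and the highest of the members' levels, which were not matched to the members on abundance, and the difference was not tested. The steadiest members were Rpl4 (4.54%), Rplp0 (5.68%), Rpl5 (6.21%) and Rpl29 (6.24%), of which Rpl5 carries 5S ribosomal RNA into the 60S subunit. The most variable were Rpl3l (41.9%), Rps4l (27.9%), Rps12 (18.1%) and Rps20 (16.7%). Except for Rplp0 and the paralogs, these were picked for their rank after values were seen. Across the 81 members with a transcript length, Pearson's r between the coefficient of variation and log2 length was -0.08, a description over genes that share libraries. By length class the median coefficient was 12.6% up to 600 bases, 10.4% from there to 1000 bases and 11.0% above 1000 bases. The difference between classes was not tested.

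**Figure D4:**
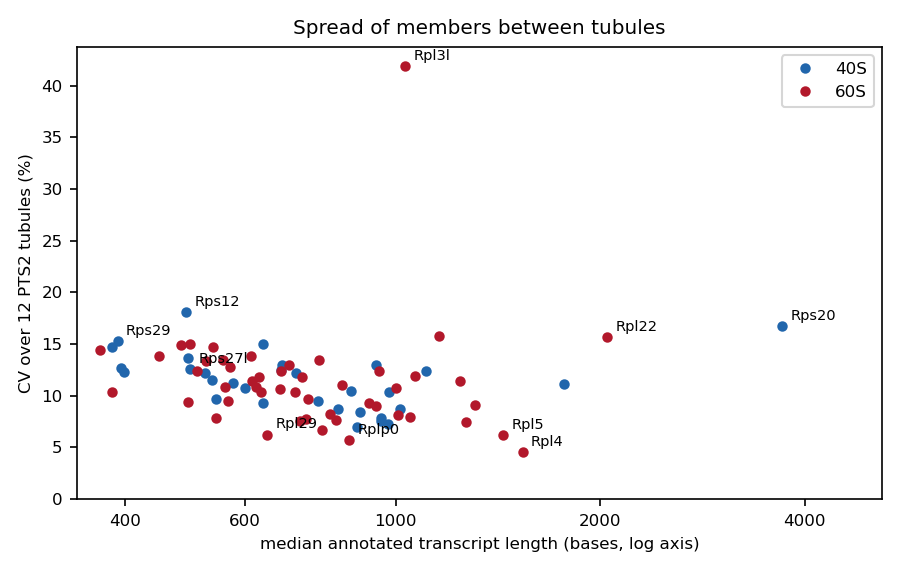
Coefficient of variation over the 12 PTS2 libraries in percent against median annotated transcript length in bases (log axis), for 80 tested members with a length. Each point is 1 member, blue for 40S and red for 60S. Rpl3l stands apart at 41.9%, and Rps4l was given no length and is not drawn.

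The lowest values gathered in 1 library. In m3 replicate 4, 62 of the 82 tested members (75.6%) had their lowest PTS2 level, against 6.52% of the other genes. Of the 82, 78 were below their mean over the other tubules, with a median log2 ratio of -0.38 and a range from -0.89 to 0.60, while the other genes had a median of 0.08. Other short transcripts were low in the same library. The 404 genes outside the members with a transcript of up to 600 bases summed to 114292 TPM there, below the 134605 to 163773 TPM of the other tubules and the 121147 to 130371 TPM of whole kidney. The same library held the highest sum of markers of all proximal segments among the tubules, at 19854 TPM. Whether either has a part in the low levels of the members was not tested. Within each length class the members' median log2 ratio there was below that of other genes. It was -0.43 against -0.10 up to 600 bases, -0.35 against -0.02 from there to 1000 bases, and -0.28 against 0.11 above 1000 bases. These differences were not tested. The members' ratios carry no pseudocount, while those of the other genes carry a pseudocount of 1 TPM. They are therefore not on the same scale, and the ratios of low genes among the others are understated.

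In m1 and m2 the low library was replicate 1. In m1 replicate 1, 73 of the 82 members had the lowest level of the set, and in m2 replicate 1, 59 did. The corresponding shares of other genes were 14.7% and 22.3%. In m3 the lowest level of the set fell on replicate 4 for 73 members and for 23.9% of other genes. Summed short transcripts in m1 replicate 1, at 134605 TPM, were the second lowest of the tubules, and whether this bears on the members was not tested. At the other end, m1 replicate 2 held the highest level of 23 of the 82 members and of 12.8% of other genes. The numbers were 22 and 2.23% for m2 replicate 3, and 14 and 4.78% for m3 replicate 2. Yet m1 replicate 2 also held the lowest PTS2 level of 4 of the 82 members and of 34.7% of other genes. Among these members was the paralog Rpl7l1, at 52.2 TPM. The highest level of Rpl7l1, 69.4 TPM, was in m3 replicate 1.

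**Figure D5:**
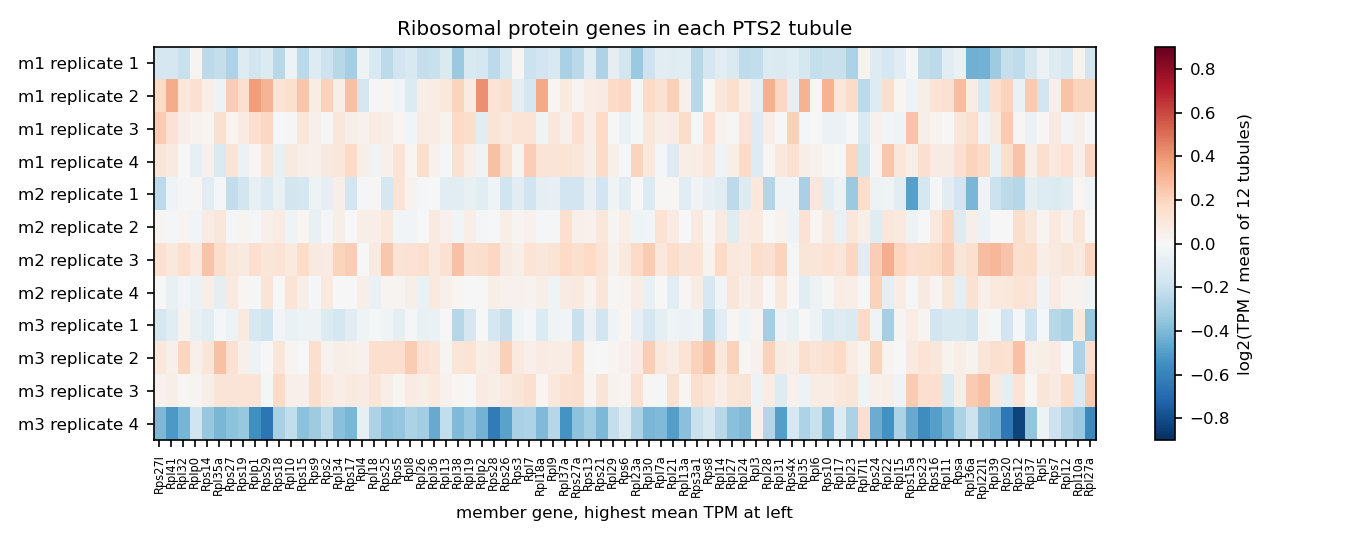
Log2 ratio of each member's TPM to its mean over the 12 tubules, for 79 members with a PTS2 mean of at least 10 TPM. Rows are the PTS2 libraries, columns are members ordered by mean TPM from the left, and blue is below and red above the mean. The row of m3 replicate 4 is blue nearly throughout, and of all 82 tested members 62 are lowest there.

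No member was called among the 3 sets. The F test of limma called 0 of 82 members after Benjamini-Hochberg adjustment and 3 at an unadjusted p under 0.05, while 3.02% and 16.4% of the 11300 genes tested were called. Between m2 and m1, 0 members passed the adjusted threshold and 1 the unadjusted (backgrounds 0.54% and 10.5%). Between m3 and m1 the numbers were 0 and 5 (backgrounds 3.17% and 18.4%), and between m3 and m2 they were 0 and 3 (backgrounds 1.97% and 11.1%). These contrasts share libraries. The median log2 difference of the members was 0.00 for m2 minus m1, -0.08 for m3 minus m1 and -0.09 for m3 minus m2, and that of all genes 0.04, 0.09 and 0.04. The summed level was 11227 ± 966 TPM (SD, n = 4) for m1, 11177 ± 718 TPM for m2 and 10567.5 ± 1418 TPM for m3, and the ranges of the sets overlapped.

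Pseudogene rows with a -ps symbol held little: 273 such rows summed to 44.7 ± 5.12 TPM (SD, n = 12) over the tubules and 50.7 ± 4.20 TPM (SD, n = 3) in whole kidney. Pseudogenes named as Gm were not part of this sum, so their level is not given here.

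Genes that make, load or regulate ribosomes were taken from lists by function. Each count below is to be read against the shares of all genes tested, 41.5% lower and 9.68% higher as TPM, and 23.1% lower and 23.6% higher after median-of-ratios rescaling. Of 19 other mRNAs with a TOP motif in translation, 9 were lower (background 41.5%) and none was higher (9.68%) in PTS2 as TPM, with 2 each way after median-of-ratios rescaling (23.1% and 23.6%). The largest lower calls were Eif3f, a subunit of initiation factor eIF3 (20.8 ± 2.30 against 34.6 ± 0.620 TPM, log2 difference -0.72, limma adjusted p = 1.94e-05), and Npm1, the nucleolar protein nucleophosmin (-0.70). Of 26 initiation factors, 15 were lower (background 41.5%) and 1 higher (9.68%), and 2 and 6 after rescaling (23.1% and 23.6%). Eif4a2, an RNA helicase, had -0.51 and Eif3a -0.47. Eif6, which keeps the free 60S subunit from joining, was the 1 called higher, with 105.3 ± 6.02 TPM over the tubules and 86.2 ± 2.79 TPM in whole kidney, or 0.28 (log2) as TPM and of 0.57 after rescaling.

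Of 32 ribosome biogenesis factors, 8 were lower (background 41.5%) and 1 higher (9.68%) as TPM, and 2 lower (23.1%) and 9 higher (23.6%) after median-of-ratios rescaling, with a median log2 difference of -0.10 and 0.16. Nhp2, a protein of the H/ACA particles that modify ribosomal RNA, was higher at 239 ± 34.3 TPM against 129 ± 23.0 TPM, a log2 difference of 0.89 as TPM and 1.18 after rescaling. Gar1, a partner of Nhp2 in the same particle, was lower with -0.75 as TPM, and Nop58, of the C/D box particles, had -0.52, which was not called without kidney replicate 2 (adjusted p = 0.0939). Of 15 genes of RNA polymerase I and its cofactors, 1 was lower, Taf1b with -0.68, and none higher, with 1 lower and 2 higher after rescaling, against the same backgrounds.

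Of 28 tested regulators of mTORC1 and TOP translation, 15 were lower (background 41.5%) and 2 higher (9.68%) as TPM, and 6 and 5 after median-of-ratios rescaling (23.1% and 23.6%). The list has members of both signs of action and also holds Myc, Max and Mxi1 of the Myc network, so its count is no measure of mTORC1 activity. Max, the partner of Myc, was at 2.83 ± 1.58 TPM over the tubules and 16.3 ± 0.904 TPM in whole kidney (log2 difference -2.26), and Rragd, a Rag GTPase that binds mTORC1 to the lysosome, at 5.03 ± 1.64 and 18.5 ± 1.49 TPM (-1.74). Mtor itself was called higher at 78.7 ± 27.0 TPM against 45.2 ± 12.6 TPM (0.74, limma adjusted p = 0.0292), though not without kidney replicate 1 (adjusted p = 0.13) or 3 (adjusted p = 0.12), and Tbc1d7, a subunit of the TSC complex that restrains mTORC1, had 0.20, a call lost without any 1 kidney library, m1 replicate 1 or m2 replicate 4.

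Mtor and Eif4ebp1 were the genes of this list that differed among the sets. Mtor had 55.9 ± 11.8 TPM (SD, n = 4) for m1, 71.7 ± 18.7 TPM for m2 and 108.5 ± 15.5 TPM for m3 (limma F test, adjusted p = 0.0291), and Eif4ebp1, the translational repressor that mTORC1 phosphorylates, had 24.1 ± 6.32, 14.8 ± 1.53 and 12.1 ± 2.34 TPM (adjusted p = 0.0179). Both calls were lost without m3 replicate 1 (adjusted p = 0.108 and 0.0528), and that of Mtor also without m1 replicate 2, 3 or 4 or m3 replicate 2 or 3. Without a filter on low values neither was called (adjusted p = 0.122 and 0.0706). Rrs1, a ribosome biogenesis factor of the 60S subunit, had 16.5 ± 2.07, 20.5 ± 1.16 and 30.6 ± 2.88 TPM (adjusted p = 0.00121). The ribosomal protein genes had no called difference between the same sets.

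Of 9 tested genes of the p53 response to ribosome stress, 3 were lower (background 41.5%) and none higher (9.68%) as TPM, and 1 and 2 after median-of-ratios rescaling (23.1% and 23.6%). Sesn1, a sestrin that restrains mTORC1, was lower at 2.79 ± 0.502 against 11.7 ± 1.07 TPM (log2 difference -1.75), and Cdkn1a, the cell cycle inhibitor p21, had -0.69 (limma adjusted p = 0.0499), a call kept only without m1 replicate 2 or 3, m2 replicate 2 or kidney replicate 3 among the single libraries left out. Of 6 tested proliferation genes, 2 were lower as TPM (background 41.5%), Mcm5 with -0.56, not called without kidney replicate 1 (adjusted p = 0.113), and Pcna with -0.44. None was called after rescaling.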

How the data were processed

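RNA-Seq values of 12 PTS2 tubule libraries and 3 whole kidney libraries were used as the TPM the authors deposited in 1 table. STAR 2.5.1b, RSEM 1.2.31 and the build GRCm38.p5 are named in the submitters' processing notes, without their roles. The authors' 4 columns of means and standard errors were not used. TPM hold no read depth.

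Linear models were fitted in R 4.3.3 by limma 3.58.1 (lmFit, eBayes with trend) to log2(TPM + 1) of genes that averaged 1 TPM or more, with Benjamini-Hochberg adjustment over all genes tested and a threshold of 0.05. Fold changes on this scale understate the change of low genes. For PTS2 against whole kidney the set was a correlated block (estimated correlation 0.0669). The sets were compared by an F test and pairwise contrasts. On simulated data with 200 changed genes, a true log2 difference of 0.5, 1 and 2 was recovered for 55, 181 and 194 genes in PTS2 against whole kidney (12040 genes), and for 51, 158 and 192 in m3 against m1 (11300 genes). False calls were 4, 8 and 14 in the first comparison and 4, 7 and 13 in the second. The simulated noise was independent between genes and libraries, so it held no shifts shared by the genes of a library. Differences as small as the members' median of -0.28 were not simulated.

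Alternatives were a pseudocount of 0.1, no filter, a mean of at least 10 TPM, 4 other scalings, a block for the replicate number, independent libraries, 1 mean per set, -ps pseudogene rows added and each library left out. Members and lists were chosen with earlier results of these data known. Named members were the 5 highest and 5 lowest in PTS2, up to 5 called per direction, the 3 largest share changes per direction without overlap, the paralogs with their parent genes, the stalk genes, Rpsa and Rps6. From each list up to 2 called genes per direction were named. Some genes that met these rules are not reported here. Tables and figures were made with Python 3.11.15, pandas 2.3.3 and matplotlib 3.10.9.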

Additional observations from a re-analysis of the deposited data

Results flagged for a closer look

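In a group of 4 libraries, the lowest or highest value was set apart where its gap to the next exceeded Dixon's critical share of the group's range at the 95% level. Only part of the members were examined, in 87 such groups. Of these groups 2 were set apart, where chance gives about 1 in 20, or 4.35. Rps12 in m2 replicate 1 was at 37.9 TPM, with the next library of the set at 49.3 TPM. Rps6 in m3 replicate 4 was at 94.5 TPM, with the next at 105 TPM. Members outside these groups were not screened and can hold similar gaps. Rps7, for example, was at 29.65 TPM in m2 replicate 1 and at 33.99 to 34.25 TPM in the other replicates of m2. m3 replicate 4 was also the library in which most members were lowest.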

How the results depend on the processing

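The number of members lower in PTS2 was 49 as reported, 3 after median-of-ratios rescaling, 28 after quantile normalization and 9 after rescaling to the members' sum. Leaving out 1 library gave 29 to 53, the lowest numbers being 29 and 32 without kidney replicates 1 and 2. The number higher was 2 as reported, 5 after median-of-ratios rescaling, 5 after rescaling to the members' sum, and 2 to 4 with 1 library left out. All genes called between PTS2 and whole kidney were 6161, with 9399 without a filter, 3113 at a mean of at least 10 TPM, 4104 after rescaling to the members' sum, and 4761 to 6712 with 1 library left out. All genes called among the sets were 341, with 196 without a filter, 109 after rescaling to the members' sum, and 197 to 563 with 1 library left out. No member was called among the sets under any alternative run. The members' sum in PTS2 was 86.0% of whole kidney, 105.8% after median-of-ratios rescaling, and 85.23% to 87.68% with 1 library left out.

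Signs were followed only for the genes named by the rules above. Among these, the sign of the log2 difference changed after median-of-ratios rescaling for Rpl10 (0.04), Rpl32 (0.04), Rpl41 (0.17), Rpl6 (0.07), Rplp1 (0.03), Rplp2 (0.02), Rps6 (0.21) and Rpsa (0.17). It changed after quantile normalization for Rpl3l (0.50), Rpsa (0.05), Taf1b (0.02) and Mcm5 (0.25), and after rescaling to the members' sum for Rpl41 (0.10), Rpl6 (0.00), Rps6 (0.14) and Rpsa (0.10). Each such change follows from the rescaling of the same values. The lists leave out the other members. Of the 82 tested members 77 were negative as TPM, while the members' median was 0.01 after median-of-ratios rescaling. More members thus changed sign than are listed. The labels do not say that a replicate number pairs libraries, and the data did not meet the requirement that every same-numbered pair correlate over 0.1 in its deviations from the set means. There is a hint of pairing: 7 of 12 same-numbered PTS2 pairs did (mean r 0.138), against 2 of 36 others (mean r -0.0463), and in 19 of 24 cases the best-correlated library of another set had the same number. With a replicate block, 39 members were lower and 2 higher in PTS2, 0 differed among the sets, and 888 of all genes were called among the sets. Among the genes named by rule, the calls of Rpl22 (adjusted p = 0.0779), Rpl32 (0.0874), Rpl6 (0.0589) and Cdkn1a (0.104) were not made with this block. Sequencing depth was unknown, so its effect on low members such as Rpl6l could not be assessed.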
